A study of Rattus norvegicus with 24 samples.

Results

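The 6 pups whose dams ate a low protein diet were compared directly with the 6 pups whose dams received Poly I:C, out of 24 pups in the study. The comparison took every gene with a mean of at least 0.1 in both groups on the deposited TPM scale, which left 9801 of the 17420 genes in the table. Another 178 genes reached that mean in 1 of the 2 groups only and were not tested. Values on the deposited scale sum to 70350.1 in every pup, below the total of ordinary TPM, so this limit is not 0.1 ordinary TPM. The lower of the 2 group means lay between 0.1 and 0.11 for 135 genes just inside this limit and between 0.09 and 0.1 for 152 genes just outside it.

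The dams were Sprague-Dawley rats with timed pregnancies, received at day 11 of gestation. Low Protein dams ate a diet with 6.1% protein from day 11 to day 18, where the control diet held 20.3% protein. Poly I:C dams received 7.5 mg/kg of polyinosine:cytosine by intraperitoneal injection on day 17, and tissue was taken on day 18, 18 hours later. Hippocampus and neocortex were collected together at embryonic day 18, with the sexes combined. Each group held 3 pups from each of 2 litters, and 6 saline and 6 MAM (methylazoxymethanol acetate) pups completed the series. From the labels, the diet of Poly I:C dams and any injection given to Low Protein dams are unknown, so the effects of diet, injection and length of exposure cannot be told apart. The dam received the treatment and there were 2 litters a group, so p-values over pups measure the spread between pups and not between independently treated dams.

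The exposures act through different machinery. Shortage of amino acids activates the kinase GCN2 and the transcription factor ATF4, which raises genes for amino acid synthesis, uptake and tRNA charging. Poly I:C is a synthetic double-stranded RNA that mimics a viral infection. It is sensed by TLR3 and by cytosolic RNA sensors in the mother, and the interferons that follow switch on interferon-stimulated genes through a response element in their promoters. In the late embryonic cortex, neurons are born from progenitors beside the ventricle while interneurons arrive from the ganglionic eminences.

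Cores of the response elements of these pathways lie before some of the genes described here. They are shown for 2 called genes of each pathway, chosen among those with a match, so that the letters can be read beside the values. No match was listed for the called genes Asns, Psph, Psat1, Eif4ebp1, Cars, Irf9 and Ifi47, whether or not their promoters were among those found. Most list members with a match were not called. A scan of the 250 bases before the start of each of 33469 rat promoters (RefSeq, build GRCr8) looked on both strands for the core of the interferon-stimulated response element, spelled GAAA, any 2 bases, GAAA. It also looked for the core of the amino acid response element, TGATGNAA. The interferon core was in 3.41% of all promoters and in 11 of the 19 promoters found for 24 tested interferon-stimulated genes (57.9%). The amino acid core was in 3.40% of all promoters, in 3 of the 21 promoters found for 23 tested amino acid response genes (14.3%) and in 5 of the 19 found for 22 aminoacyl-tRNA synthetase genes (26.3%). Capitals mark the match, each sequence reads 5′ to 3′ on the gene's strand, and a match is a description of letters and not a shown site. The Bst2 window is chr16:18255063-18255112 on the minus strand, where 2 matches overlap and 1 is shown in capitals. The Igtp window is chr10:42874924-42874973 on the plus strand, the Pycr1 window is chr10:106420916-106420963 on the minus strand, and the Chac1 window is chr3:126795944-126795991 on the plus strand.
Bst2: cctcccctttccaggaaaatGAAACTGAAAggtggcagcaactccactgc
Igtp: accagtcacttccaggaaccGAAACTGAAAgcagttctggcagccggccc
Pycr1: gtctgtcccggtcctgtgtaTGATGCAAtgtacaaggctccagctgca
Chac1: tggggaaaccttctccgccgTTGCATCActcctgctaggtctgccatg

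Some libraries stood apart. Choroid plexus markers summed to 34.7 in Poly I:C pup 1.3 (litter 1, pup 3) against 148 to 257 in the other 5 Poly I:C pups. Meninges markers summed to 13.6 to 77.1 in Low Protein pups, highest in pups 2.2 and 1.1, and to 19.6 to 38.9 in Poly I:C pups. The Y-linked gene Eif2s3y exceeded 1 in 4 of 6 Low Protein pups and in 2 of 6 Poly I:C pups, so the groups differed in their share of males. Depth, estimated from the steps between low values, was 24972000 to 62431000 reads per Low Protein pup and 28955000 to 41624000 per Poly I:C pup. The part of these differences in the results below was not tested unless a value is given beside a result.

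Few genes separated the groups. By limma, 2 of 9801 genes (0.0204%) passed a Benjamini-Hochberg adjusted p of 0.05, Acat1 higher in Low Protein and Slc15a4 higher in Poly I:C. At an unadjusted p under 0.05, 485 genes (4.95%) were called, where 5% would be called if no gene differed. Of these, 243 (2.48%) were higher in Low Protein and 242 (2.47%) were higher in Poly I:C. Values did not overlap between the 6 and 6 pups for 28 genes (0.286%), 15 higher in Low Protein and 13 higher in Poly I:C. A gene with no difference separates in this way with a chance of 0.00216, the smallest exact two-sided permutation p. A share close to the one seen would therefore arise if no gene differed. The median log2 difference (Low Protein minus Poly I:C) over all genes was -0.021. Differences were small, with a median size of 0.21 on the log2 scale among the 485 genes, and 4 of them reached a size of 1. Unadjusted calls numbered 785 without Low Protein pup 1.3, 1338 without Low Protein litter 1, 283 without Low Protein litter 2, 749 without Poly I:C litter 1 and 982 without Poly I:C litter 2. With 1 pup left out at a time they ran from 364 to 785. List counts given below with a pup or litter left out belong beside these totals, not beside the 4.95% of the full fit. Adjusted calls numbered 5 without Poly I:C pup 1.3 and 9 without Poly I:C litter 1. Non-overlapping genes numbered 46, 72, 71 and 56 without Low Protein pups 1.2 and 1.3 and Poly I:C pups 1.3 and 2.3. An unadjusted call is described below as higher or lower, and its adjusted p is given where the gene leads a group.

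**Figure D1:**
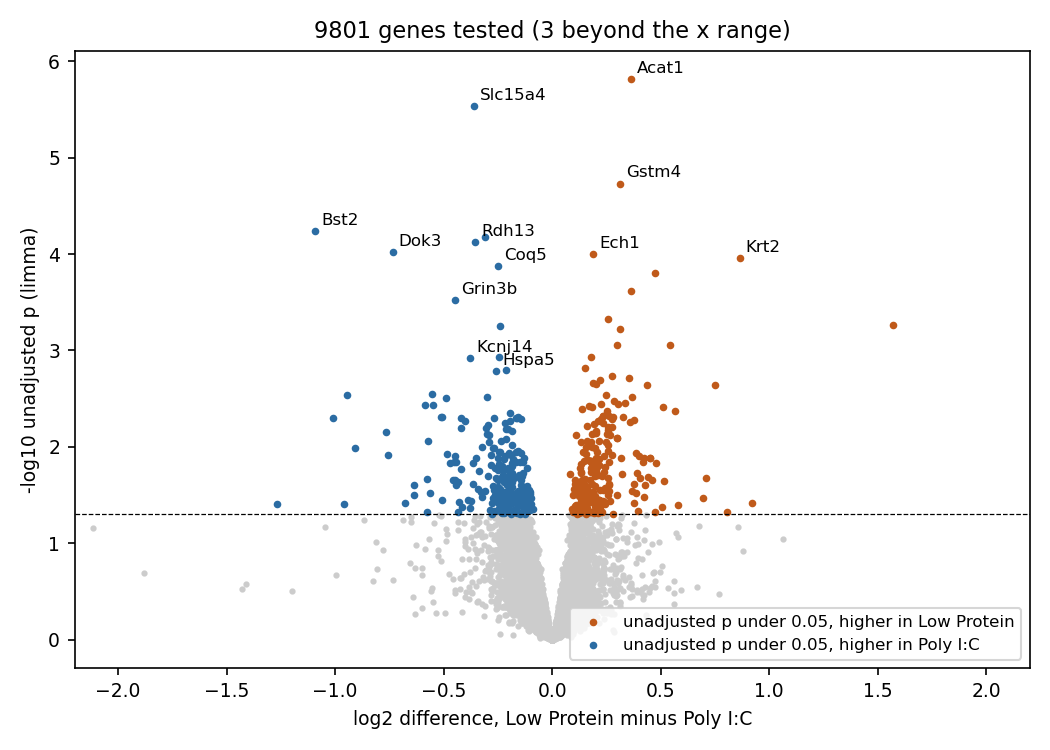
Log2 difference (x axis, Low Protein minus Poly I:C) against -log10 of the unadjusted limma p-value (y axis) for 9801 genes, with the dashed line at 0.05. Acat1 and Slc15a4 lie highest, and the 243 and 242 coloured genes are spread almost evenly over the sides.

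Acat1 encodes mitochondrial acetyl-CoA acetyltransferase, which acts in ketone body and isoleucine breakdown. Its values ran from 2.10 to 2.35 (median 2.26) in Low Protein pups and from 1.54 to 1.90 (median 1.78) in Poly I:C pups. All 6 Low Protein pups lay above all 6 Poly I:C pups, and both litters of each group kept that order. The means were 2.23 ± 0.0938 in Low Protein pups against 1.74 ± 0.150 in Poly I:C pups (SD, n = 6 each), beside 2.08 ± 0.103 in saline pups. The log2 difference was 0.36 (SE 0.057), with an adjusted limma p of 0.0144. The exact two-sided permutation p of 0.00216 is the smallest that the splits of 12 pups allow. Every gene without overlap has that value, so it adds nothing to the lack of overlap. Adjusted over all genes, the permutation p of Acat1 was 0.758. Slc15a4, a lysosomal histidine and peptide transporter that takes part in endosomal Toll-like receptor signalling, went the other way. Its values ran from 0.689 to 0.910 (median 0.787) in Low Protein pups and from 0.966 to 1.10 (median 1.00) in Poly I:C pups. The groups did not overlap, saline pups averaged 0.883 ± 0.0348, and the log2 difference was -0.36 (SE 0.059) with an adjusted limma p of 0.0144. Acat1 kept an adjusted p under 0.05 in 23 of 33 alternative settings and Slc15a4 in 16 of 32. Both calls were lost without Low Protein pup 1.1 (limma, adjusted p = 0.0501), Low Protein pup 2.1 (0.0519) or Poly I:C pup 1.1 (0.0683), and that of Slc15a4 without Poly I:C pup 2.3 (0.0615). Of the 4 litters left out in turn, only the omission of Poly I:C litter 2 kept Acat1 under 0.05, and none kept Slc15a4. With the 12 pups alone in the fit both had an adjusted limma p of 0.515, and with litter means it was 0.995 for both.

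Other genes higher in every Low Protein pup included enzymes, ribosomal proteins of mitochondria and a few unrelated genes. Gstm4, a glutathione transferase, ran from 3.14 to 3.69 (median 3.39) in Low Protein pups and from 2.51 to 3.02 (median 2.71) in Poly I:C pups. Its log2 difference was 0.31 (SE 0.058) and its adjusted limma p was 0.0609. Ech1, a peroxisomal and mitochondrial enzyme of fatty acid breakdown, ran from 5.13 to 5.76 (median 5.43) in Low Protein pups and from 4.54 to 5.11 (median 4.72) in Poly I:C pups. Its log2 difference was 0.19 (SE 0.041) (limma, adjusted p = 0.119). Slc25a11, the mitochondrial oxoglutarate carrier, differed by 0.15 and Nme2, a nucleoside diphosphate kinase, by 0.16. The mitochondrial ribosomal genes Mrpl15 (0.20) and Mrpl2 (0.24) belonged here too. So did Psmd9, a proteasome assembly chaperone (0.22), Hbegf, a growth factor of the EGF family (0.20), Myg1 (0.16) and the keratin Krt2 (0.86, on means of 0.236 and 0.126). Krt2 was low, on an estimated 28 to 119 reads per pup.

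**Figure D2:**
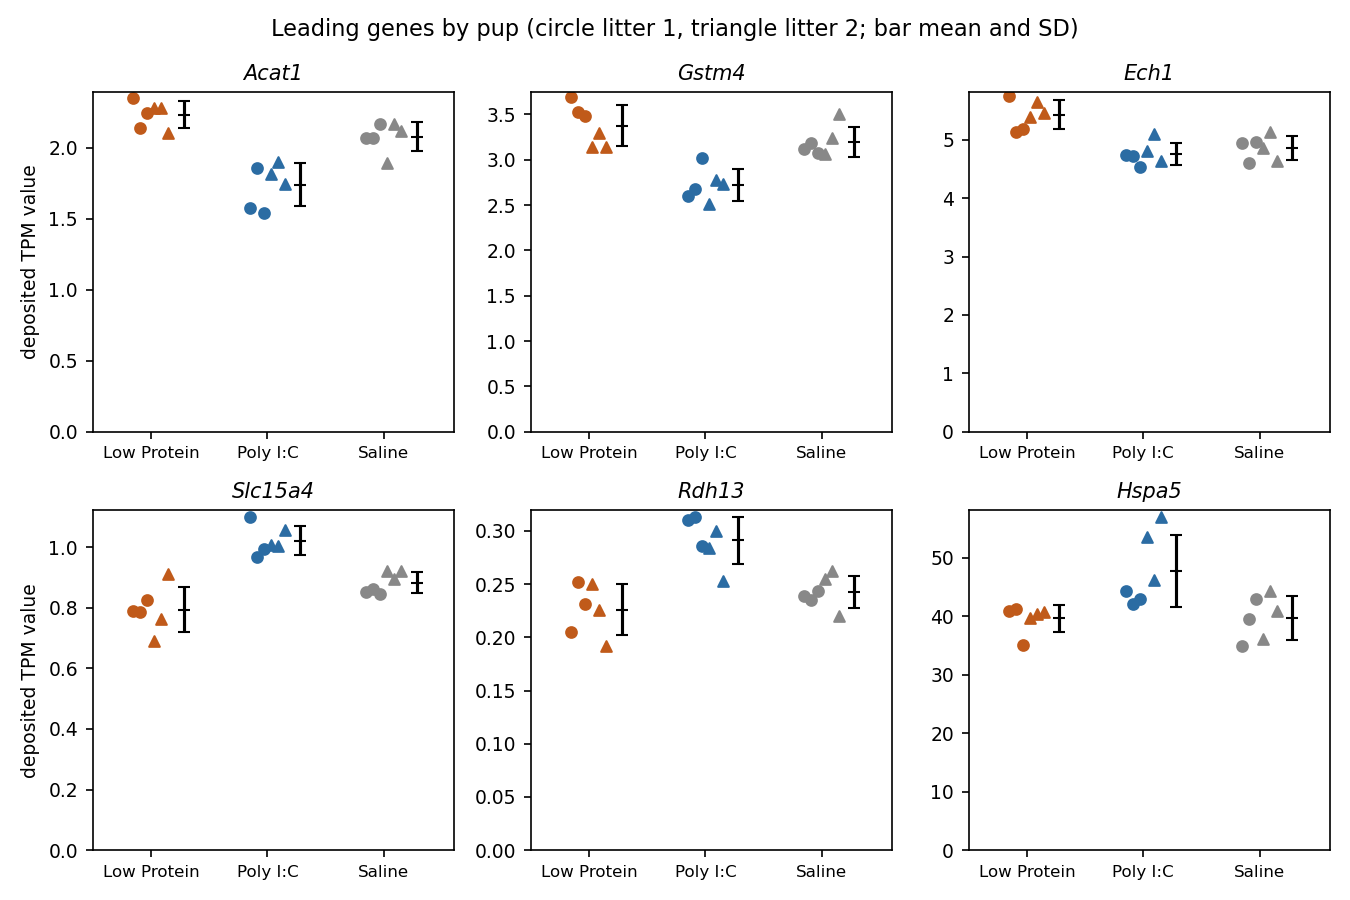
Deposited TPM values of Acat1, Gstm4, Ech1, Slc15a4, Rdh13 and Hspa5 in each Low Protein, Poly I:C and saline pup (circles litter 1, triangles litter 2), with group mean and SD as bars. The Low Protein and Poly I:C points do not overlap in any of the 6 panels, with Low Protein above in the upper row and below in the lower row.

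Genes higher in every Poly I:C pup included the chaperone of the endoplasmic reticulum Hspa5 (BiP). Hspa5 ran from 35.1 to 41.2 (median 40.5) in Low Protein pups and from 42.2 to 56.9 (median 45.2) in Poly I:C pups, so every Poly I:C pup lay above every Low Protein pup, and saline pups averaged 39.7 ± 3.74. Its log2 difference was -0.26 (SE 0.073) and its adjusted limma p was 0.636. Dok3, an adaptor that restrains immune receptor signalling, ran from 0.107 to 0.194 (median 0.179) in Low Protein pups and from 0.233 to 0.384 (median 0.273) in Poly I:C pups. The log2 difference of Dok3 was -0.74 (SE 0.16) (limma, adjusted p = 0.119). Rdh13, a mitochondrial retinol dehydrogenase, differed by -0.35 (SE 0.074), and Coq5, a methyltransferase of ubiquinone synthesis, by -0.25 (SE 0.055). Of neuronal genes, the NMDA receptor subunit Grin3b (-0.45) and the potassium channel Kcnj14 (-0.38) were lower in Low Protein. The RNA binding proteins Elavl1 (-0.20) and Tra2a (-0.21), the tRNA methyltransferase family member Trmt1l (-0.24), Tjap1 (-0.20) and the G protein subunit Gnb3 (-0.35) also did not overlap, leaving 1 gene of the 13 unnamed.

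Called genes of the amino acid response were higher in Low Protein, mainly through 1 of its litters. Of 23 tested members, 18 had a higher mean in Low Protein and 6 were called (26.1%, against 4.95% of all genes), all in that direction and none at an adjusted p under 0.05. The median log2 difference was 0.11 against -0.021 over all genes. Asns, which makes asparagine, was 0.879, 1.07 and 1.12 in Low Protein litter 1 and 1.29, 2.10 and 2.20 in litter 2. Poly I:C pups ran from 0.956 to 1.15, so all 3 litter 2 pups lay above them and litter 1 did not. The log2 difference of Asns was 0.42 (SE 0.16), with an adjusted limma p of 0.873. Pycr1, the last enzyme of proline synthesis, ran from 2.04 to 3.29 (median 2.70) in Low Protein pups and from 1.86 to 2.30 (median 2.24) in Poly I:C pups, a log2 difference of 0.27 (SE 0.089). The serine synthesis enzymes Psph (0.32) and Psat1 (0.25), the translation inhibitor Eif4ebp1 (0.39) and the glutathione-degrading enzyme Chac1 (0.30) were the other called members. Psat1 was also higher in Poly I:C litter 2 (2.16, 2.61 and 2.38) than in saline pups, which averaged 1.77 ± 0.0983. Without Low Protein litter 2 the median of the list was 0.021 and 2 members were called, while calls over all genes fell from 485 to 283. With 1 pup left out at a time, 2 to 7 members were called, fewest without Low Protein pup 2.2, and 3 were called without Low Protein pup 2.3 or Poly I:C pup 1.1.

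Of 22 aminoacyl-tRNA synthetase genes, 17 had a higher mean in Low Protein, with a median of 0.060, and 1 was called (4.55%), no larger a share than the 4.95% of all genes. Cars, which charges tRNA with cysteine, was 1.07, 1.21 and 1.08 in Low Protein litter 1, 1.47, 1.75 and 1.73 in litter 2, and 0.906 to 1.20 in Poly I:C pups. Its log2 difference was 0.34 (SE 0.10) (limma, adjusted p = 0.746). Among 15 amino acid transporter genes the median was 0.020 and 1 was called (6.67%, against 4.95% of all genes). It was Slc7a6, a cationic amino acid exchanger, which was lower in Low Protein (-0.20).

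**Figure D3:**
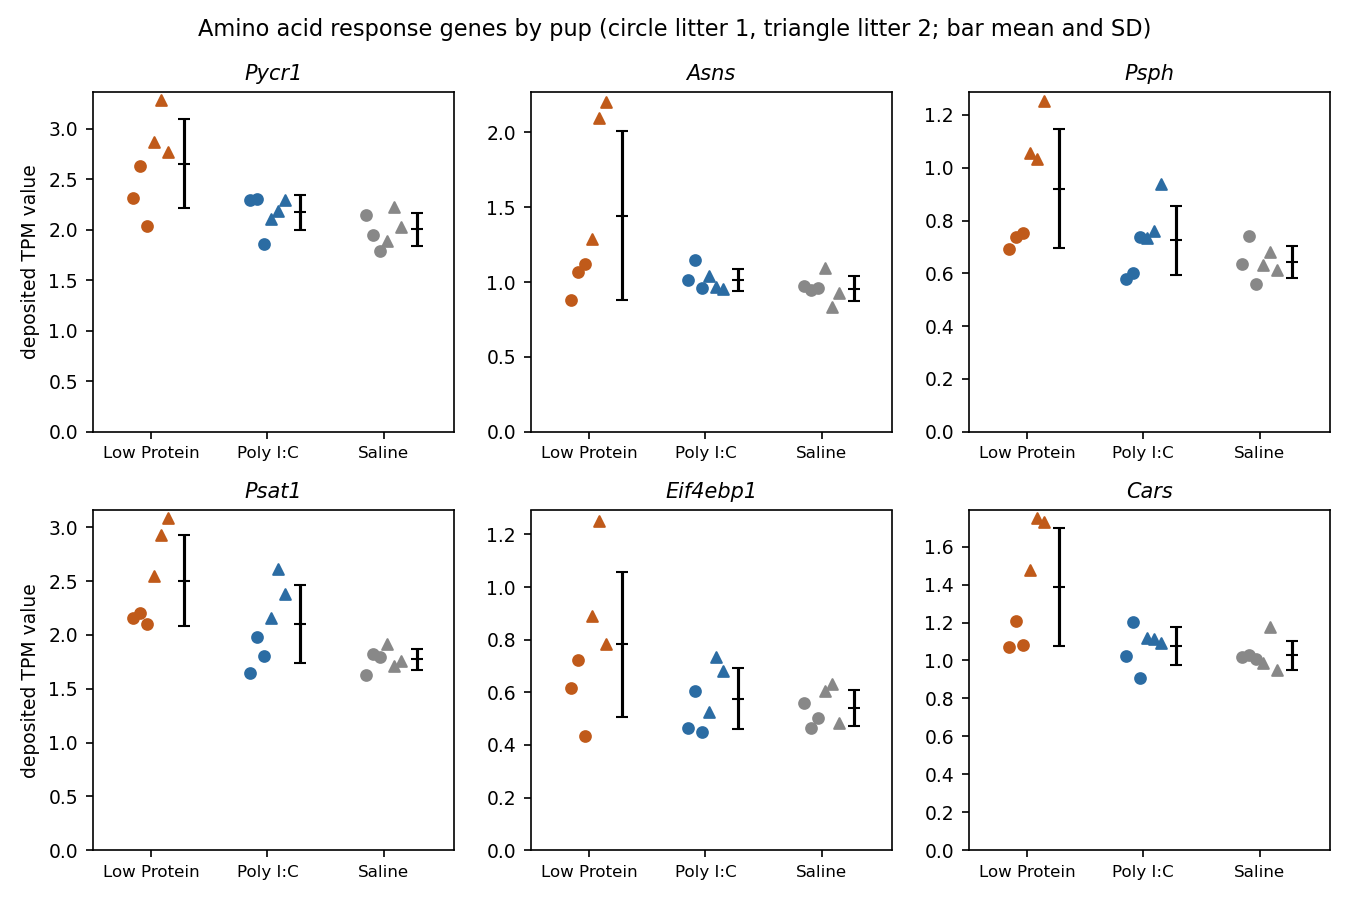
Deposited TPM values of Pycr1, Asns, Psph, Psat1, Eif4ebp1 and Cars in each Low Protein, Poly I:C and saline pup (circles litter 1, triangles litter 2), with group mean and SD as bars. In Asns and Cars the Low Protein triangles lie above all Poly I:C points, while the Low Protein circles lie below, among or just above them.

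Most ribosomal and respiratory chain genes had a slightly higher mean in Low Protein, and few passed the unadjusted threshold. All but 1 of 81 cytosolic ribosomal protein genes had a higher mean in Low Protein, with a median log2 difference of 0.12, and 18 were called (22.2%, against 4.95% of all genes), none in the other direction and none at an adjusted p under 0.05. Rpl3 ran from 102 to 108 (median 106) in Low Protein pups and from 88.1 to 103 (median 99.2) in Poly I:C pups, a log2 difference of 0.11 (SE 0.038). Rpl13a differed by 0.24 (SE 0.076), Rps18 by 0.28 (SE 0.091), Rpl41 by 0.25 (SE 0.086) and Rpl17 by 0.51 (SE 0.16). Saline means of Rpl3 and Rps18 (96.6 and 25.3) lay nearer to those of Poly I:C (97.3 and 24.6) than to those of Low Protein (105 and 29.8), while that of Rpl17 (37.1) lay nearer to Low Protein (43.3) than to Poly I:C (29.8). Ribosomal protein genes have many near-identical copies, so their single values are uncertain. Of 71 oxidative phosphorylation genes 61 had a higher mean in Low Protein and 9 were called (12.7%, median 0.077), among them the ATP synthase subunits Atp5i (0.20) and Atp5j2 (0.20) and the complex I subunits Ndufa2 (0.20) and Ndufa11 (0.13). Of 69 mitochondrial ribosomal genes 58 had a higher mean and 6 were called (8.70%, median 0.053), with Mrpl52 (0.30 (SE 0.078)), Mrpl15, Mrpl2, Mrps25 (0.15) and Mrpl57 (0.16) leading. The genes in each list are not independent of each other. With 1 pup left out at a time, cytosolic ribosomal calls ran from 5 (without Low Protein pup 2.3 or Poly I:C pup 1.1) to 35 (without Poly I:C pup 2.3), and oxidative phosphorylation calls from 4 (without the same 2 pups) to 14 (without Poly I:C pup 1.3). Quantile normalization left 10 cytosolic ribosomal calls. Without Low Protein litter 2, 1 cytosolic ribosomal gene was called and the median was 0.079, while calls over all genes fell from 485 to 283. Removing the trend on gene span left 7 calls and a median of 0.11.

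Called interferon-stimulated genes were all higher in Poly I:C. The list had 52 genes in the table, of which 28 did not reach a mean of 0.1 in both groups and were not tested. Of 24 tested members 21 had a higher mean in Poly I:C and 5 were called (20.8%, against 4.95% of all genes), none in the other direction and none at an adjusted p under 0.05. The median log2 difference was -0.14. Bst2 (tetherin), which holds budding viruses at the cell surface, was 0.520, 1.22 and 0.402 in Poly I:C litter 1 and 1.04, 0.929 and 0.899 in litter 2. Low Protein pups ran from 0.280 to 0.562 (median 0.322) and saline pups averaged 0.405 ± 0.0951, so 4 of 6 Poly I:C pups lay above every Low Protein pup. The log2 difference of Bst2 was -1.09 (SE 0.22), an adjusted limma p of 0.119 and an exact two-sided permutation p of 0.0108. The interferon-inducible GTPases Igtp (-0.49) and Ifi47 (-0.43), the galectin Lgals9 (-0.47) and Irf9, a subunit of the interferon-activated factor ISGF3 (-0.19), were the other called members. Igtp and Ifi47 were low, on an estimated 19 to 77 and 23 to 132 reads per pup. Microglia markers summed to 13.2 to 30.5 in Low Protein and 15.8 to 23.1 in Poly I:C pups, and endothelium markers to 44.1 to 93.6 and 49.2 to 81.3, with 0 called in either list. Pup 1.3, lowest of the Poly I:C pups in Bst2, was also lowest in microglia markers. Without Poly I:C litter 2 the median was -0.086, 11 of 24 members were higher in Low Protein and 1 was called in each direction. Without Poly I:C litter 1 the median was -0.37 and 9 were called. With 1 pup left out at a time 2 to 8 were called, fewest without Low Protein pup 1.3 and most without Poly I:C pup 1.3.

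**Figure D4:**
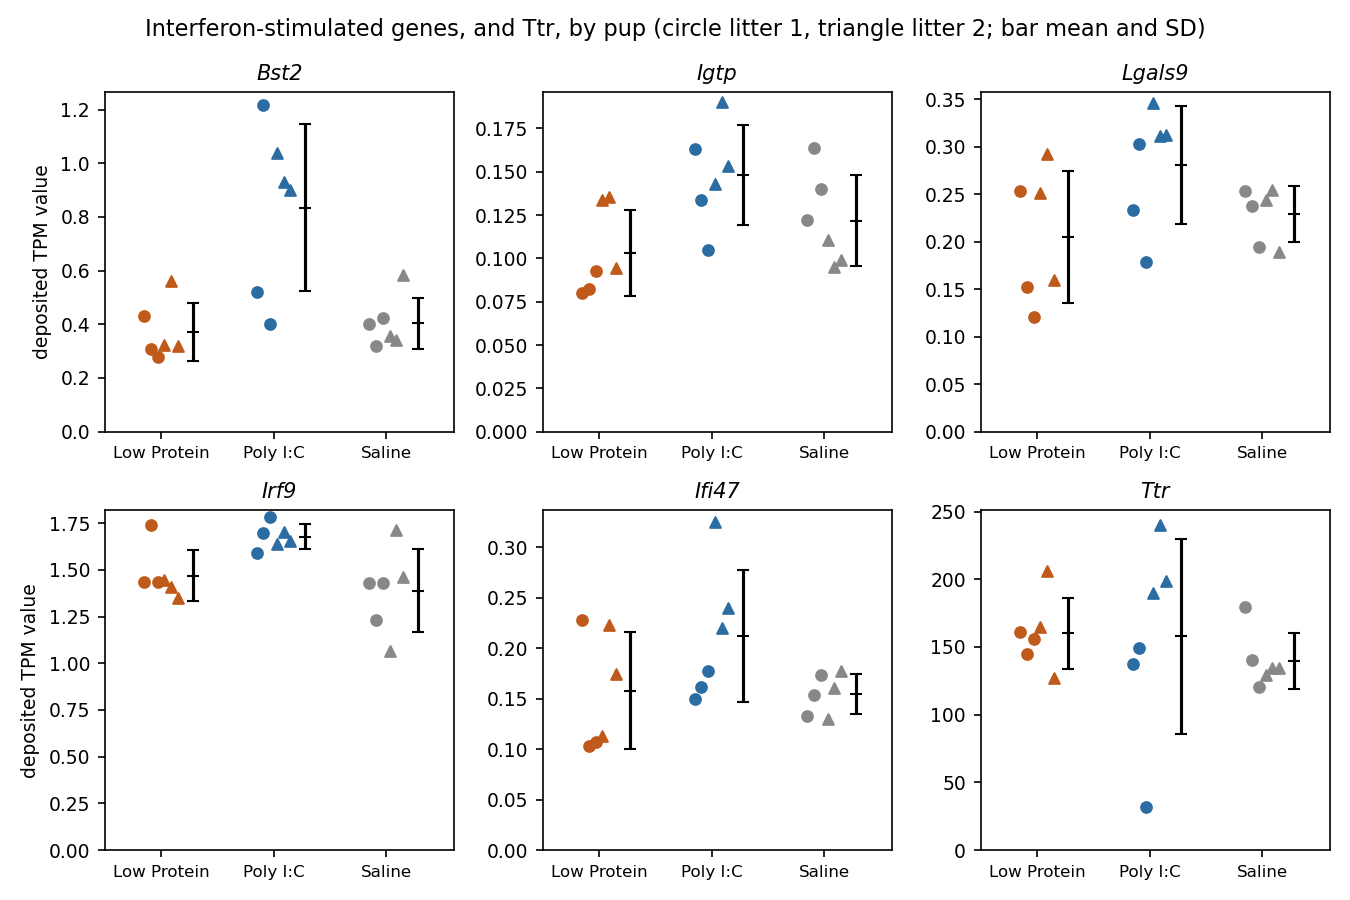
Deposited TPM values of Bst2, Igtp, Lgals9, Irf9 and Ifi47, and of the choroid plexus gene Ttr, in each Low Protein, Poly I:C and saline pup (circles litter 1, triangles litter 2), with group mean and SD as bars. Poly I:C litter 2 lies above every Low Protein pup in Bst2, and 1 Poly I:C circle is far below the others in Ttr (32.0 against 137 to 240).

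Class I antigen presentation genes differed in direction, and of 15 tested 4 were called (26.7%, against 4.95% of all genes). RT1-S3 (-0.48), RT1-CE10 (-0.64) and RT1-A2 (-0.42) were higher in Poly I:C and RT1-A1 (0.43) was higher in Low Protein. These genes are near-identical copies and their values are uncertain. Of 19 cytokine and NF-kB genes 1 was called (5.26%, against 4.95% of all genes), Lcn2, an iron-binding acute phase protein. Lcn2 was higher in Low Protein (0.207 ± 0.0684 in Low Protein pups against 0.120 ± 0.0395 in Poly I:C pups, SD, n = 6 each), a log2 difference of 0.75 (SE 0.22), with Low Protein pup 2.2 far above the rest at 0.345. Lcn2 and RT1-CE10 were low, on an estimated 8 to 69 and 12 to 60 reads per pup.

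Among chaperones and related genes of the endoplasmic reticulum, 22 of 26 tested had a higher mean in Poly I:C (median -0.090). Of the 26, 8 were called (30.8%, against 4.95% of all genes), 6 of them higher in Poly I:C, and none passed an adjusted p of 0.05. Beside Hspa5 these included the transcription factor Xbp1 (-0.17 (SE 0.064)) and Syvn1, a ubiquitin ligase that clears misfolded proteins (-0.14 (SE 0.058)). Ssr4 (0.18) and Sec61g (0.14), of the protein translocation machinery, were called in the other direction. Without Low Protein litter 2 or without Poly I:C litter 2, 1 member was called as higher in Poly I:C, as it was without Poly I:C pup 2.1.

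Of 31 tested sterol synthesis genes, 28 had a lower mean in Low Protein (median -0.11). The 4 called (12.9%, against 4.95% of all genes) were lower there, and none passed an adjusted p of 0.05. Scd, counted in this list, makes monounsaturated fatty acids and not sterols. Its values were 0.895, 1.04 and 0.963 in Low Protein litter 1 and 0.595, 0.594 and 0.764 in litter 2, against 0.834 to 1.22 in Poly I:C and a saline mean of 1.09. All 3 pups of litter 2 lay below every Poly I:C pup. Scd differed by -0.40 (SE 0.13), and the cholesterol synthesis enzymes Dhcr7, Msmo1 and Cyp51 by -0.15, -0.24 and -0.15. Without Low Protein litter 2 the median was 0.026 and no member was called as lower, with 283 calls over all genes. Without litter 1 the median was -0.23 and 17 were called, with 1338 calls over all genes. With 1 pup left out at a time 1 to 11 were called as lower, fewest without Low Protein pup 2.2 or 2.3 and most without Low Protein pup 1.3.

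**Figure D5:**
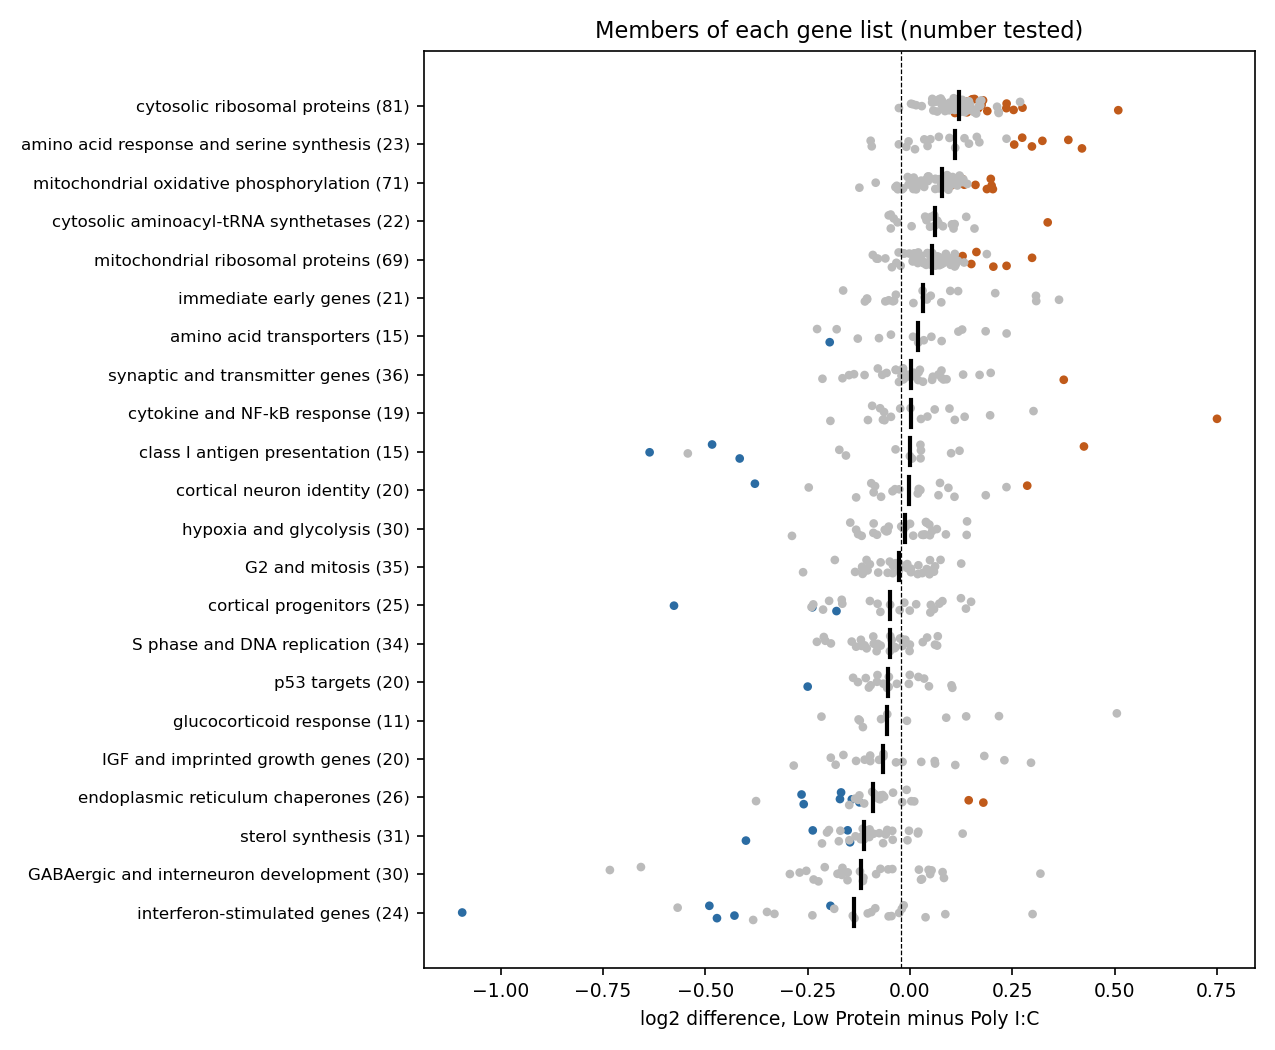
Log2 difference (x axis, Low Protein minus Poly I:C) of each tested member of the gene lists other than cell type markers and sex-linked genes. Calls at unadjusted p under 0.05 are coloured, list medians are black bars and the median of all genes is the dashed line. Most ribosomal proteins lie to the right and most interferon-stimulated genes to the left of it.

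Few genes of neurogenesis were called. Of 25 cortical progenitor genes 3 were called (12.0%, against 4.95% of all genes), all higher in Poly I:C: the stem cell factor Sox2 (26.1 ± 2.51 in Low Protein pups against 30.8 ± 2.99 in Poly I:C pups, SD, n = 6 each, log2 difference -0.24 (SE 0.10)), the proneural factor Neurog1 (-0.58 (SE 0.23)) and the Notch ligand Dll1 (-0.18 (SE 0.080)). None was called without Low Protein pup 2.2, and 6 were without Poly I:C pup 1.3. Of 34 S phase genes 29 had a higher mean in Poly I:C and 0 were called by limma at an unadjusted p under 0.05, among them Pcna (-0.12) and Mcm7 (0.042). Of 35 G2 and mitosis genes 0 were called, and Ccnb2 and Cdc20 differed by 0.041 and -0.054. Of 20 p53 targets 1 was called, Zmat3 (-0.25), a share of 5% against 4.95% of all genes. Of 20 genes of cortical neuron identity 2 were called (10%, against 4.95% of all genes), 1 in each direction, and the median was -0.0033. Crym, a thyroid hormone binding protein, was higher in Low Protein (0.29 (SE 0.088)) and Prox1, a marker of dentate gyrus granule cells, was lower (-0.38 (SE 0.18)).

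For 30 genes of GABAergic and interneuron development the median was -0.12 and 0 were called by limma at an unadjusted p under 0.05. Dlx1, a factor of interneuron development, ran from 22.3 to 30.2 (median 26.7) in Low Protein pups and from 23.8 to 33.8 (median 30.2) in Poly I:C pups, a log2 difference of -0.15 (SE 0.11). The values overlapped between the groups. Dlx5 differed by -0.24 (SE 0.16), Lhx6 by -0.25 (SE 0.14) and Nkx2-1 by -0.66 (SE 0.45), and the neuropeptide gene Sst differed by 0.32 (SE 0.20). Sst was 17.7 in Poly I:C pup 2.2 against 44.5 to 56.6 in the others. With 1 pup left out at a time its difference fell as low as 0.071. The median was 0.016 without Poly I:C litter 1. Among 36 synaptic genes the median was 0.0022 and 1 was called (2.78%, against 4.95% of all genes). It was the vesicle fusion regulator Cplx2 (0.38 (SE 0.17)), with the lowest value, 0.817, in Poly I:C pup 1.3. The differences of Syp (0.054 (SE 0.081)), Grin1 (0.020 (SE 0.12)), Gad1 (-0.083 (SE 0.20)), Adra2a (-0.015 (SE 0.14)), Adra2c (0.20 (SE 0.13)), Lhx2 (-0.025 (SE 0.11)) and Hes7 (-0.20 (SE 0.13)) did not pass either threshold, which does not show that the groups were alike.

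No member was called by limma at an unadjusted p under 0.05 among immediate early genes (21 tested, Jund 0.051, Btg1 -0.11), glucocorticoid response genes (11 tested, Tsc22d3 -0.070, Per1 0.089), IGF and imprinted growth genes (20 tested, Nnat 0.061, Ndn -0.10) or hypoxia and glycolysis genes (30 tested, Tpi1 0.049, Aldoa 0.033). The same held for markers of striatum (Penk -0.019), choroid plexus (Ttr 0.23, Sostdc1 0.21), meninges (Islr 0.11, Col1a1 -0.062), blood (Hba1 -0.33, Hbb -0.19), endothelium (Cldn5 0.039, Vtn -0.00700), microglia (C1qa -0.032, C1qc -0.030), oligodendrocytes (Olig1 -0.34, Olig2 -0.22), astrocytes (Aldoc -0.043, Gja1 0.20) and Cajal-Retzius cells (Calb2 0.10, Lhx5 -0.25). Of 5 thalamus markers tested 1 was called (20%, against 4.95% of all genes), Tcf7l2, which was higher in Poly I:C (-1.27 (SE 0.58)). Tcf7l2 ran from 0.118 to 1.58 (median 0.180) in Low Protein pups and from 0.143 to 2.03 (median 0.887) in Poly I:C pups. Fewer cells of a type and less RNA per cell cannot be told apart in these bulk samples.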

How the data were processed

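Libraries (TruSeq Stranded mRNA, paired reads) came from hippocampus and neocortex of 24 embryonic pups. The authors trimmed reads at a phred score of 30 and a length of 25, aligned them to rn6 with STAR 2.4.1d and quantified them in Partek, and the deposited values are TPM with an offset of 1e-04 added. The values behave as if scaled to genomic span, so levels were compared between pups and not between genes. The deposited table holds TPM and no counts, and depth is an estimate. The deposited values sum to 70350.1 in every pup, which is below the total of ordinary TPM. Levels printed here, and the limit of 0.1, are on this deposited scale and should not be read as ordinary TPM. Values were tested as log2(value + 0.01) with limma 3.58.1 (R 4.3.3, lmFit, eBayes with trend) over all 24 pups, the contrast being Low Protein minus Poly I:C, with Benjamini-Hochberg adjustment over 9801 genes. A fold change on this scale understates that of low genes. A second threshold was an unadjusted p under 0.05. Exact permutation tests were two-sided over all splits of the 12 pups. Promoters are those of RefSeq on GRCr8, not the build of the table. Genes and lists were chosen with earlier results of these data known. Genes named are the 12 with the lowest p in each direction among genes whose groups do not overlap, up to 5 called members of each of 34 lists (the 2 highest where none was called) and 13 genes of the study's interest, leaving out unnamed loci and a few genes not reported here. Chac1 was added after its values were seen. Alternatives varied filter, pseudocount, scaling, pups, litters, covariates and test.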

Additional observations from a re-analysis of the deposited data

Results flagged for a closer look

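In each group of 6 pups, Dixon's test asked whether the highest or lowest pup stood apart from the nearest other. The ratio of that gap to the range was set against its 95% critical value. For genes, gap and range were taken on the log2 scale that limma tested. The gene values printed below are deposited TPM, and a ratio taken directly on them differs and can lie below the critical value. List scores (the mean deviation of a list's genes in a pup) were used as printed. Dixon's test was run on 288 groups of named genes and list scores. The ratio exceeded the critical value in 29 groups (10.1%), where chance flags about 1 in 20. Of the 29, 12 were at Poly I:C pup 1.3.

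In Low Protein pup 1.1, Penk was lowest at 1.44 against 3.02 to 4.58 in the others (ratio 0.640). In Low Protein pup 1.2, Crym was lowest at 3.61 against 4.60 to 5.30 in the others (ratio 0.629), and Irf9 was highest at 1.74 against 1.35 to 1.44 in the others (ratio 0.736). In Low Protein pup 1.3, Dok3 was lowest at 0.107 against 0.166 to 0.194 in the others (ratio 0.740), and Hspa5 was lowest at 35.1 against 39.7 to 41.2 in the others (ratio 0.766). In Low Protein pup 2.1, Nme2 was highest at 25.3 against 22.3 to 23.1 in the others (ratio 0.713), and Myg1 was highest at 3.40 against 3.08 to 3.17 in the others (ratio 0.718). In Low Protein pup 2.2, Lcn2 was highest at 0.345 against 0.170 to 0.193 in the others (ratio 0.827). In Low Protein pup 2.3, Calb2 was highest at 1.20 against 0.675 to 0.793 in the others (ratio 0.719), Atp5j2 was highest at 15.1 against 12.0 to 12.7 in the others (ratio 0.776), and the score of G2 and mitosis was lowest at -0.348 against -0.0181 to 0.161 in the others (ratio 0.648). There, the score of cortical neuron identity was lowest at -0.292 against -0.00166 to 0.0933 in the others (ratio 0.753). In Poly I:C pup 1.3, Gnb3 was highest at 1.12 against 0.807 to 0.895 in the others (ratio 0.683), Ttr was lowest at 32.0 against 137 to 240 in the others (ratio 0.723), and Sostdc1 was lowest at 0.661 against 2.75 to 4.63 in the others (ratio 0.732). There, RT1-CE10 was lowest at 0.0931 against 0.246 to 0.370 in the others (ratio 0.696), RT1-A2 was lowest at 0.602 against 1.20 to 1.63 in the others (ratio 0.688), and Tsc22d3 was highest at 13.7 against 10.2 to 11.3 in the others (ratio 0.661). There, Cplx2 was lowest at 0.817 against 1.58 to 2.07 in the others (ratio 0.708), the score of amino acid response and serine synthesis was lowest at -0.179 against -0.0496 to -0.0335 in the others (ratio 0.889), and the score of class I antigen presentation was lowest at -0.273 against 0.0523 to 0.246 in the others (ratio 0.627). There, the score of cortical progenitors was lowest at -0.194 against 0.0401 to 0.160 in the others (ratio 0.661), the score of choroid plexus markers was lowest at -1.83 against 0.0135 to 0.783 in the others (ratio 0.706), and the score of microglia markers was lowest at -0.333 against -0.0163 to 0.156 in the others (ratio 0.649). In Poly I:C pup 2.2, Hbegf was lowest at 0.415 against 0.518 to 0.551 in the others (ratio 0.778), Sst was lowest at 17.7 against 44.5 to 56.6 in the others (ratio 0.792), and Mrps25 was lowest at 1.32 against 1.57 to 1.67 in the others (ratio 0.729). There, Penk was lowest at 2.06 against 3.04 to 3.75 in the others (ratio 0.651). In Poly I:C pup 2.3, Ssr4 was highest at 6.15 against 4.98 to 5.34 in the others (ratio 0.669). The part of choroid plexus or other tissue in the values of pup 1.3 was not tested.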

How the results depend on the processing

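Of 68 named genes with an unadjusted p under 0.05, 68 kept their direction in every one of 33 alternatives that could be computed for them, 2 of which were chosen after seeing the data. These genes were named for differences in the same pups, and some alternatives change the p-value but not the difference. A kept direction is therefore no independent support. The count at an adjusted p under 0.05 was 2 in the report. It was 1 with median-of-ratios scaling, with quantile normalization, with the Y gene covariate and with the gene span trend removed, and 0 with the 12 pups only, with exact permutation tests and with the replicate number as a block. The block gave 626 unadjusted calls, and with it the adjusted limma p of Acat1 was 0.0637 and that of Slc15a4 was 0.0697. Low Protein and Poly I:C pups of the same number deviated together with correlations of 0.20 to 0.28 for 4 of 6 numbers, each the best match of its own number, and of -0.19 and -0.11 for the other two. The labels name no shared source for pups of the same number, so the number was treated as a name only in the main fit. Whether such pups shared a source was not tested. Leaving out a pup or litter gave 0 to 9 adjusted calls, and litter means gave 2, neither of them Acat1 or Slc15a4. Unadjusted calls were 485 in the report, 272 (5.23%) at a mean of at least 1, 735 (4.95%) with no filter, 301 with litter means, 739 with the Y gene covariate and 283 to 1338 with a pup or litter left out. The highest was without Low Protein litter 1 and the lowest without Low Protein litter 2. The percent of these higher in Low Protein was 50.1 in the report, 57.4 at a mean of at least 1, 58.5 with median-of-ratios scaling, 56.6 with quantile normalization, 34.4 with the Y gene covariate, 36.1 with Eif2s3y alone and 22.8 to 69.6 with a pup or litter left out. Genes that did not overlap numbered 28, 16 at a mean of at least 1 and 32 to 677 with a pup or litter left out, where smaller groups separate more easily. The cause was not tested in the other cases. Values that changed sign belonged to genes with no call. Vtn was 0.0042 at a pseudocount of 1, 0.017 and 0.018 with median-of-ratios and quantile scaling and 0.0079 with upper quartile scaling. Penk was 0.0048 and 0.0016 with median-of-ratios and quantile scaling and 0.013 and 0.0076 with the covariates. Adra2a was 0.0089 with median-of-ratios scaling and 0.0015 with the Y gene covariate, Nnat -0.022 with quantile normalization, Lhx2 0.0037 with the span trend removed and Eif2s3y -0.26 and 0 with the covariates. With a pup or litter left out, log2 differences ran from lowest to highest as Adra2a -0.32 to 0.29, Aldoa -0.010 to 0.077, Btg1 -0.28 to 0.055, C1qa -0.25 to 0.18, C1qc -0.31 to 0.25, Calb2 -0.074 to 0.27, Ccnb2 -0.12 to 0.21, Cdc20 -0.25 to 0.14, Cldn5 -0.18 to 0.26, Col1a1 -0.45 to 0.32, Gad1 -0.47 to 0.30, Grin1 -0.21 to 0.25, Hbb -0.43 to 0.043, Islr -0.20 to 0.41, Jund -0.0024 to 0.090, Lhx2 -0.10 to 0.048, Lhx6 -0.52 to 0.012, Mcm7 -0.064 to 0.15, Ndn -0.33 to 0.14, Nkx2-1 -1.41 to 0.092, Nnat -0.13 to 0.26, Olig2 -0.50 to 0.058, Pcna -0.27 to 0.032, Penk -0.24 to 0.20, Per1 -0.011 to 0.18, Sostdc1 -0.33 to 0.74, Syp -0.11 to 0.22, Ttr -0.40 to 0.86, Vtn -0.16 to 0.15.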
